A study of Mus musculus with 6 samples.

Results

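The levels of 6 genes, Hmga1, Hmga2, Igf2bp2, Igf2bp3, Lin28b and Arid3a, were compared between untreated and sTREM-1-treated BV2 cells, mouse microglia grown as an immortalized line. They were taken by symbol from a count table of 46095 gene symbols, and 6 of 6 were found and passed the filter on low counts that left 14120 genes for the test. The genes were selected with the difference between these same libraries already known, so their differences, standard errors and intervals are given as a description, with no p-value. Whether they are among the genes called across the whole table is stated once for completeness and supports nothing. The lists of other genes below were also chosen with earlier results of these data known. Their shares and p-values are a description as well. TREM-1 is a receptor of myeloid cells that amplifies the innate immune response, and sTREM-1 is its soluble form. The CON group was untreated BV2 cells (n = 3), and the sTREM-1 group was BV2 cells given the recombinant protein at 1 μg/mL for 6 h (n = 3). As a line in culture, BV2 has no neighbouring brain cells. No label says that the libraries of a group came from separate cultures, so the p-values below measure only the spread between these libraries, which may be technical.

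The libraries summed to between 40070633 and 45877107 counts. Sampling noise was exceeded within groups (chi-square per gene of 3.45 to 4.99 between any pair of libraries) and by more between groups (20.3 to 22.3). Levels are given as CPM, read counts scaled to a common library size. Of 11 microglial marker genes, 10 were tested. Their summed level was 2388 to 2417 CPM in CON and 2625 to 2711 CPM in the sTREM-1 group, and 4 of the 10 were called higher, where 16.5% of all tested genes were, among them Csf1r, the receptor of the main growth factor of microglia (521 and 753 CPM). Most of the rise in the sum came from Csf1r. Of the 10 markers, 0 were called lower and 6 were not past the threshold. Among those 6, the means of Itgam, P2ry12 and Spi1 were higher after sTREM-1. Those of Cd68 (605 CPM in CON and 589 CPM after sTREM-1), Tyrobp (300 and 293 CPM) and Tmem119 were lower. The part of these markers in the differences below was not tested. Aif1 was listed at 0, and Cx3cr1, Tmem119 and P2ry12, which mark microglia in the brain, had group means under 2 CPM. The summed markers of neurons, astrocytes, fibroblasts and lymphocytes reached at most 1.26 CPM and those of oligodendrocytes 7.84 CPM.

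The 6 genes belong to a programme known from embryonic tissue and tumours. HMGA proteins bind the minor groove of AT-rich DNA and bend it so that other factors can assemble there. The IGF2BP proteins bind mRNAs and steer their stability, transport and translation. LIN28B binds the precursor of the microRNA let-7 and blocks its maturation, and ARID3A is a DNA-binding protein with an AT-rich interaction domain. let-7 is a family of microRNAs that rises as cells differentiate. It silences mRNAs that carry in their 3′ untranslated region (UTR) a match to its seed, the bases near its 5′ end, and the mRNAs of this programme are textbook examples of its targets.

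The mature let-7 sequences are shown because they define the match that was searched for. They were taken from RefSeq for GRCm38.p6, and the capitals mark the seed, bases 2 to 8. Of 11 mature let-7 and miR-98 names, 10 share this seed.
mmu-let-7a-5p: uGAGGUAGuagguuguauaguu
mmu-let-7d-5p: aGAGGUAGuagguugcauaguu
mmu-let-7i-5p: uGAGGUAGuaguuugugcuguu
mmu-miR-98-5p: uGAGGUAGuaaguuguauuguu

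The reverse complement of the seed, CTACCTC, was searched for on the sense strand of the longest annotated 3′ UTR of each gene (GENCODE M21, build GRCm38). It was present in 6 of 6 genes. Among the 20544 symbols of the table with a 3′ UTR, 9.18% held at least 1 match, 1.1% at least 2 and 0.156% (32 genes) at least 3. Long 3′ UTRs have more room for a match, and the median length over those symbols was 979 bases against 1183 to 4445 bases in the 6 genes. A match is a description of the sequence and not a proven site.

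Hmga2 held 4 matches in a 3′ UTR of 3014 bases, and its windows are shown because Hmga2 is the gene whose level moved most. Capitals mark the seed match in each window of 24 bases on the minus strand of chromosome 10. The last letter stands opposite base 1 of the microRNA, and an a there makes the match an 8mer, the form known to be repressed most strongly.
Hmga2 match 1, chr10:120364224-120364247: cgccgacattcaatttCTACCTCa
Hmga2 match 2, chr10:120362987-120363010: tccccactcctcaataCTACCTCt
Hmga2 match 3, chr10:120362549-120362572: cctgatttgcaaggaaCTACCTCc
Hmga2 match 4, chr10:120361691-120361714: caatcaaaacacactaCTACCTCt

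The first Hmga2 match began at base 58 of the 3′ UTR and the last at base 2591, so that they were spread over its whole length. Lin28b also held 4 matches, in a 3′ UTR of 4445 bases, and only 12 genes of the table held at least 4. Its single 8mer began at base 36, again close to the stop codon. Arid3a held 2 matches, and Igf2bp2, Igf2bp3 and Hmga1 held 1 each. The best match of each of these 5 genes is shown for comparison, with its strand in brackets.
Lin28b, chr10:45381022-45381045 (minus): cacccgggcgggaagtCTACCTCa
Arid3a, chr10:79953894-79953917 (plus): caaggcaagtttctttCTACCTCa
Igf2bp2, chr16:22059473-22059496 (minus): aacacacaaataaaagCTACCTCa
Igf2bp3, chr6:49086787-49086810 (minus): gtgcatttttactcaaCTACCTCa
Hmga1, chr17:27563276-27563299 (plus): ctcctctgttcacaaaCTACCTCt

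Of the 6 genes, Hmga1 was the one with no 8mer.

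Hmga2, which encodes the HMGA protein typical of embryonic cells and is silent in most adult tissues, was abundant in BV2 cells and was lower after sTREM-1. Its level was 304, 299 and 306 CPM in the CON libraries and 212, 200.4 and 206 CPM in the sTREM-1 libraries. The groups were far apart, and each was tight. The mean went from 303.1 ± 3.52 CPM (SD, n = 3) to 206 ± 5.74 CPM (n = 3), so that it fell by 32.1%, and the log2 fold change was -0.56 (SE 0.026, 95% interval -0.61 to -0.51). Of all tested genes 578 had a lower log2 fold change, but among the 2417 genes with a mean of at least 100 CPM only 5 did. The counts are shares of each library from bulk RNA, so fewer cells with the transcript and less transcript per cell cannot be told apart.

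Hmga1, the HMGA gene of most proliferating cells, had no such difference. Its values were 16.9, 20.7 and 18.5 CPM in CON and 19.8, 15.5 and 16.9 CPM after sTREM-1, so that the groups overlapped widely. The means were 18.7 ± 1.90 and 17.4 ± 2.22 CPM (SD, n = 3 each), with a log2 fold change of -0.11 (SE 0.085, 95% interval -0.27 to 0.06). The counting of this gene is uncertain, because part of its transcript sequence is not unique and reads from it may have been assigned elsewhere. Hmga2 shared 0.768% of its 50-base stretches with another gene, and Igf2bp2, Igf2bp3, Lin28b and Arid3a shared 0.

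Igf2bp2, an IGF2BP gene that many adult cells still express, was slightly lower after sTREM-1. Its level was 269, 263 and 265 CPM in CON and 243, 244 and 246 CPM in the sTREM-1 group. The libraries of a group lay within a few CPM of each other, so that the groups did not overlap although the difference was small. The means were 266 ± 2.94 and 244 ± 1.75 CPM (SD, n = 3 each), a drop of 7.98%, with a log2 fold change of -0.12 (SE 0.025, 95% interval -0.17 to -0.07). Its close relative Igf2bp3, which is largely restricted to embryos and tumours, had 79.7, 83.4 and 90.6 CPM in CON and 83.2, 86.2 and 85.2 CPM after sTREM-1. All sTREM-1 values of Igf2bp3 fell inside the range of the CON values. The log2 fold change of Igf2bp3 was 0.0054 (SE 0.040), and its 95% interval of -0.072 to 0.083 leaves room for a change of a few percent in either direction. The family's remaining member, Igf2bp1, which held 4 seed matches, had 2 counts in 1 CON library and 0 in the other 5.

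Lin28b, the inhibitor of let-7 maturation, was detected in every library at a low level. Its counts were 172, 135 and 202 in CON and 230, 165 and 137 after sTREM-1, which is 4.20, 3.29 and 4.95 CPM against 5.03, 3.87 and 3.45 CPM. The groups overlapped nearly completely, with a mean of 4.15 ± 0.830 CPM in CON and 4.12 ± 0.820 CPM after sTREM-1 (SD, n = 3 each). The log2 fold change was -0.0057 with an SE of 0.16, and the 95% interval of -0.33 to 0.31 is the widest of the 6 genes. Counting error at the lowest count was 8.61% and the coefficient of variation within the sTREM-1 group was 19.9%. A change of Lin28b that lies inside this interval was not detectable here. Its paralogue Lin28a was listed at 0 in all 6 libraries.

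Arid3a, which acts with other factors at promoters of lymphoid and stem cells, had 71.2, 72.3 and 71.6 CPM in CON and 77.4, 73.0 and 74.2 CPM after sTREM-1. Each sTREM-1 value was above each CON value, but the gap was narrower than the spread of the sTREM-1 libraries. The means were 71.7 ± 0.553 and 74.9 ± 2.29 CPM (SD, n = 3 each), a ratio of 1.04, and the log2 fold change of 0.063 (SE 0.037, 95% interval -0.0089 to 0.14) included 0.

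**Figure D1:**
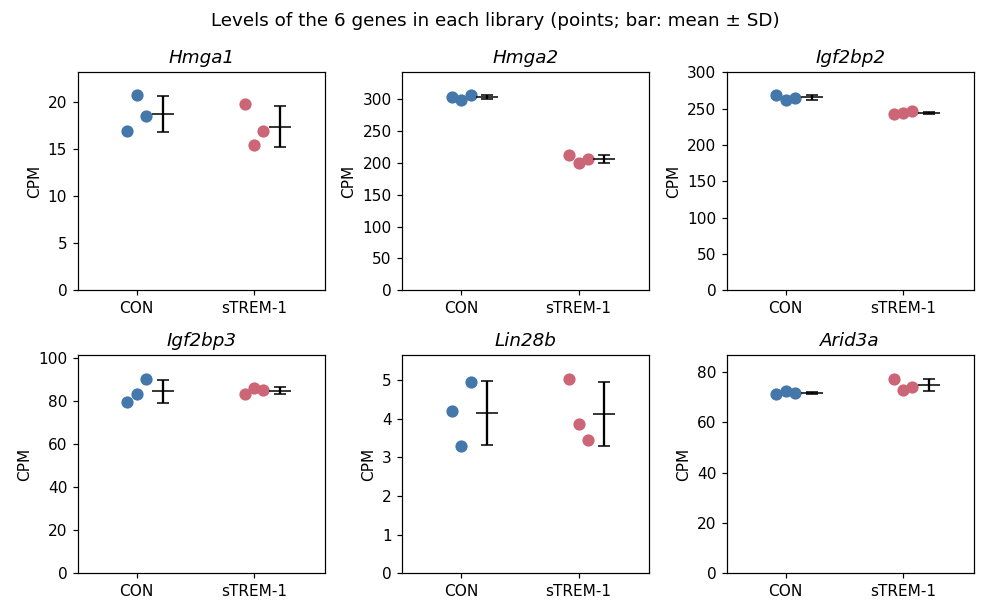
Level of each of the 6 genes in CPM (linear axis from 0) in the 3 CON and 3 sTREM-1 libraries, with each library as a point and the mean ± SD as a bar beside them. The groups of Hmga2 stand apart at 303.1 and 206 CPM, those of Igf2bp2 are separated by a small step, and those of Hmga1, Igf2bp3 and Lin28b overlap.

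In the quasi-likelihood test of edgeR across all genes (Benjamini-Hochberg adjusted p, threshold 0.05), the genes called across the table included 2 of the 6, Hmga2 and Igf2bp2, both lower, and 0 that were higher. That is 33.3% of the 6, where 30.5% of all tested genes were called, 16.5% as higher and 14.1% as lower. The groups did not overlap in 3 of the 6 genes, against 40.7% of all tested genes. Because the 6 genes were selected on this contrast, nothing is read from these shares. The median log2 fold change of the 6 was -0.056, with 2 positive and 4 negative values, and that of all tested genes was -0.0017. Only Hmga2 lay outside the 5th to 95th percentile of all tested genes, -0.50 to 0.42, and the other 5 lay between the quartiles of -0.13 and 0.13.

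**Figure D2:**
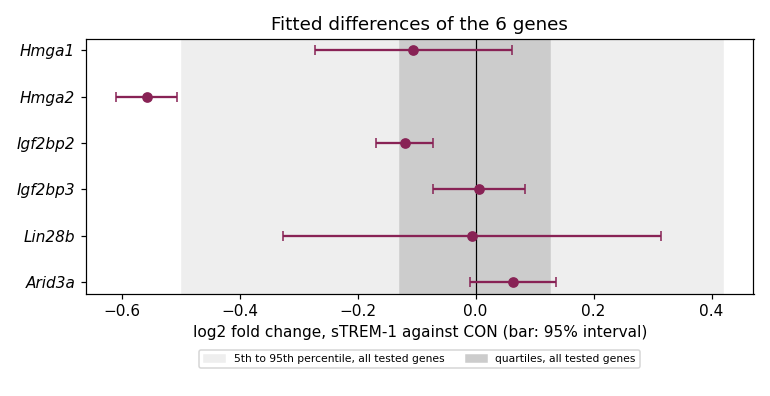
Log2 fold change of the 6 genes, sTREM-1 against CON, as points with 95% intervals, over the quartiles (dark band) and the 5th to 95th percentile (light band) of all tested genes. Hmga2 at -0.56 is outside the light band, and the points of the other 5 genes lie between -0.12 and 0.063.

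Levels were compared between genes only per kilobase of annotated exons. In CON, Hmga2 led with 44.8 ± 0.520 CPM per kilobase, followed by Igf2bp2 with 35.9 ± 0.397, Arid3a with 12.9 ± 0.0994, Igf2bp3 with 10.4 ± 0.678, Hmga1 with 8.81 ± 0.892 and Lin28b with 0.457 ± 0.0915 (SD, n = 3 each). The CON libraries of these genes did not overlap between neighbours in that order, but Igf2bp3 and Hmga1 almost met, with the lowest library of Igf2bp3 at 9.76 and the highest of Hmga1 at 9.75 CPM per kilobase. After sTREM-1, Hmga2 had 30.4 ± 0.847 and Igf2bp2 33.0 ± 0.236 CPM per kilobase, so that their order was turned on this scale. The ratio of Hmga2 to Igf2bp2 per kilobase was 1.24, 1.25 and 1.26 in the CON libraries and 0.954, 0.898 and 0.913 in the sTREM-1 libraries. The order depends on the length used. With the longest transcript in place of all exons, Hmga2 stayed above Igf2bp2 in both groups (79.6 and 53.6 CPM per kilobase in CON, 54.1 and 49.3 after sTREM-1), and Igf2bp3 at 19.5 stood above Arid3a at 13.4 in CON.

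Ratios within a library restate the levels given above and are no further result. The ratio of Hmga2 to Arid3a and to Hmga1 was lower after sTREM-1, as was the level of Hmga2. Hmga2 per Arid3a went from 3.47 ± 0.0622 to 2.26 ± 0.0146, and Hmga2 per Hmga1 from 5.12 ± 0.550 to 3.75 ± 0.361 (SD, n = 3 each), with no overlap of the groups in either ratio. Igf2bp2 per Igf2bp3 went from 3.47 ± 0.243 to 3.17 ± 0.0501. Its groups almost met, with the lowest CON library at 3.23 and the highest sTREM-1 library at 3.22.

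In the annotation of GRCm38, the genes lie at chr10:120361275-120476469 (Hmga2, minus strand), chr16:22059009-22163299 (Igf2bp2, minus), chr6:49085223-49214957 (Igf2bp3, minus), chr10:45376620-45486395 (Lin28b, minus), chr10:79927043-79955018 (Arid3a, plus) and chr17:27556497-27563674 (Hmga1, plus). Hmga2, Lin28b and Arid3a are thus on the same chromosome, far from each other. Genes on the opposite strand overlap exons of Hmga1 (AI413582 and Gm49774), Hmga2 (1700006J14Rik) and Igf2bp3 (Malsu1). The strand setting of the counting is not given in the sources used here, so reads from such pairs cannot be told apart. Malsu1, with 9.88 ± 1.13 CPM in CON and 10.3 ± 0.226 CPM after sTREM-1, and AI413582, with at most 24 counts in a library, were low beside their partners. Gm49774 and 1700006J14Rik, the partner of Hmga2, were not analysed here.

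The pattern of each gene over the 6 libraries was compared with that of the 10067 tested genes with a mean of at least 5 CPM, as the distance between log2 CPM profiles centred on the CON mean. Nearest to Hmga2 were Tbc1d16 (distance 0.062, log2 fold change -0.59) and Pla2g5 (distance 0.062, log2 fold change -0.57, from 184 to 124 CPM). Pla2g5 encodes a secreted phospholipase. Nearest to Igf2bp2 were Znrf1, a ubiquitin ligase gene (distance 0.019), and Stat5b, a transcription factor gene of cytokine signalling (distance 0.022). The profile of Arid3a was nearest to those of Actl6a and Kat5, both of chromatin-modifying complexes (distance 0.033 each). Hmga1 was nearest to Sap18 (0.12) and Gm42312 (0.14), Igf2bp3 to Ept1 (0.043) and Cep83 (0.057), and Lin28b to Gm10145 (0.19) and Ankrd13d (0.26). The larger distances of Hmga1 and Lin28b go with their larger spread between libraries. Among the 6 genes themselves, Igf2bp3 and Arid3a were closest (0.19), and Hmga2 was at least 0.76 from any other.

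The mature let-7 microRNAs were not measured by this sequencing of long RNA. Of the 17 let-7 precursor and host genes listed, 15 were in the table and 7 of these were listed at 0 in all libraries. Mirlet7d had 3, 7 and 6 counts in CON and 1, 3 and 2 after sTREM-1, too few for the test. Only 2 host genes were tested. Wdr82, which lies around the let-7g precursor, was higher by 0.082 on the log2 scale (edgeR quasi-likelihood test, Benjamini-Hochberg adjusted p 0.0421). That call was lost when any library but sTREM-1 replicate 2 was left out, with an edgeR adjusted p of 0.059 to 0.165. Huwe1, the host of let-7f and miR-98 on chromosome X, had a log2 fold change of 0.036 (SE 0.023), not past the threshold.

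The machinery that makes and uses let-7 moved in both directions. Its list was chosen with earlier results of these data known, so its share is a description. Of 24 genes listed for let-7 processing and silencing, 22 were tested, 4 were higher and 4 lower, which is 36.4% called against 30.5% of all tested genes, with a median log2 fold change of -0.0017 close to that of all tested genes. Ago2, the slicing Argonaute that carries microRNAs to their targets and itself holds 3 let-7 matches, was lower, with 540, 506 and 535 CPM in CON and 449, 437 and 439 CPM after sTREM-1 (log2 fold change -0.25, SE 0.025, edgeR quasi-likelihood test, Benjamini-Hochberg adjusted p 1.95e-09). Its relative Ago1 was higher (log2 fold change 0.13, same test, adjusted p 0.00916), so the Argonautes did not move together. Drosha, the nuclease that cuts precursors from primary transcripts, was higher with 74.1 ± 3.21 CPM in CON and 85.1 ± 4.25 CPM after sTREM-1 (log2 fold change 0.20), and so were Zcchc6 (log2 fold change 0.20), a uridyltransferase that tails let-7 precursors, and Xpo5 (log2 fold change 0.11), their exporter from the nucleus. The lower genes also included Tnrc6c (-0.15), Tnrc6a (-0.078) and Syncrip (-0.069), and TNRC6 proteins link Argonautes to mRNA decay. Without sTREM-1 replicate 1 the number called went from 8 to 4, and without CON replicate 3 to 5. Ago2, Drosha and Zcchc6 kept their calls in every fit without 1 library. Ago1 lost its call without sTREM-1 replicate 1 (edgeR adjusted p 0.059), Tnrc6c without CON replicate 3 (0.123) or sTREM-1 replicate 2 (0.082), and Xpo5, Tnrc6a and Syncrip in 4 of these 6 fits each. Dicer1, which makes the mature microRNA, had a log2 fold change of -0.056, and Zcchc11 had -0.044, neither past the threshold. Lin28a and Trim71 were not tested, with 0 and 1 counts in all.

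Other genes known as let-7 targets were called in both directions, more of them lower. Of 35 listed, 29 were tested, 3 were higher and 9 lower, 41.4% called against 30.5% of all tested genes, with a median log2 fold change of -0.079. Of all tested genes, 16.5% were called higher and 14.1% lower. Since this list was chosen with earlier results of these data known, nothing is read from its shares. Il6, a cytokine gene, was lower with 33.2 ± 1.44 CPM in CON and 21.0 ± 1.03 CPM after sTREM-1, a log2 fold change of -0.66 (SE 0.059) near that of Hmga2. The cell cycle genes Ccnd1 (-0.38) and Ccnd2 (-0.24) and the kinase gene Map4k4 (-0.29) were lower too, each in all 3 sTREM-1 libraries. Rrm2, a subunit of ribonucleotide reductase, was the member of this list with the clearest rise, from 63.6 ± 0.447 to 83.8 ± 1.39 CPM (log2 fold change 0.40, SE 0.036), followed by the receptor gene Igf1r (0.17) and the transcription factor gene Bach1 (0.12). The Benjamini-Hochberg adjusted p of the edgeR quasi-likelihood test was 2.85e-10 for Il6, 1.14e-10 for Ccnd1, 1.33e-10 for Map4k4, 3.8e-05 for Ccnd2 and 4.35e-10 for Rrm2. Igf1r lost its call without CON replicate 2 (edgeR adjusted p 0.0685) or sTREM-1 replicate 2 (0.0548), and Bach1 without sTREM-1 replicate 1 (0.0779). Other lower genes, named after their values were seen, were Nr6a1 (-0.21), which with 8 matches held the most of this list, Cdc25a (-0.20), Cdk6 (-0.10) and Plagl2 (-0.094). Cdc25a kept its call in every fit without 1 library. Cdk6 lost it without CON replicate 3 (edgeR adjusted p 0.0736), Plagl2 without CON replicate 1 (0.0756), and Nr6a1 in 4 of these 6 fits.

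Calls were found among targets with and without a seed match, where 16.5% of all tested genes were called higher and 14.1% lower. Of the 18 tested with a match, 3 were higher and 4 lower (median log2 fold change -0.071), and of the 11 without one in the longest annotated 3′ UTR, 0 were higher and 5 lower (median -0.10). Il6, Ccnd1 and Ccnd2 are among those without a match, while Rrm2, the gene with the clearest rise, held 1.

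**Figure D3:**
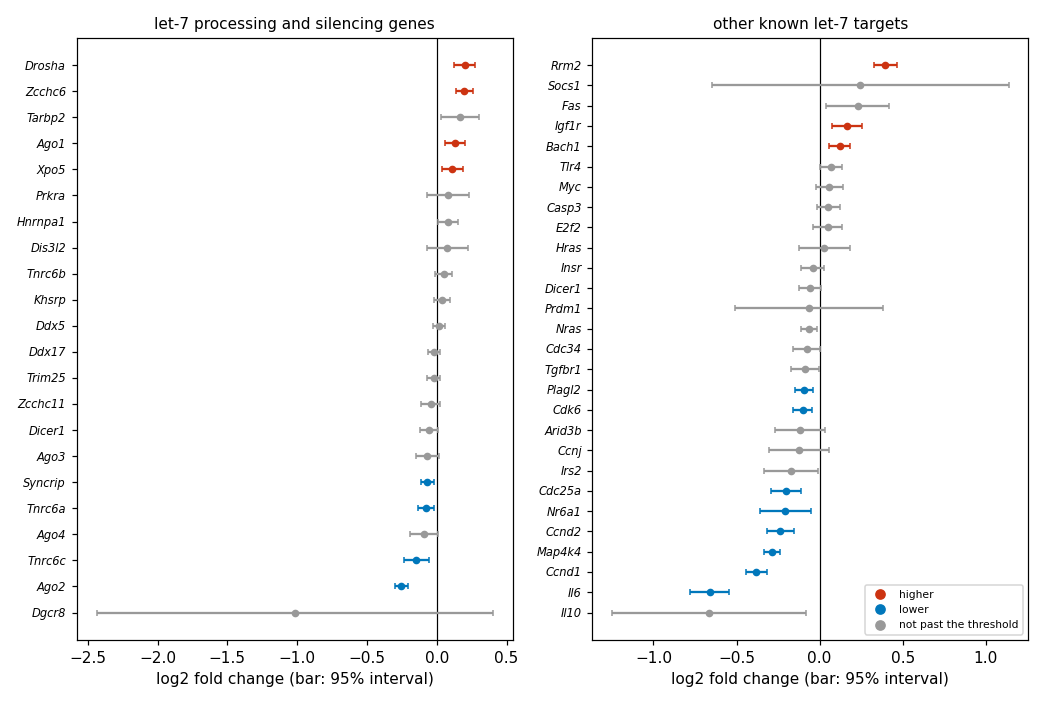
Log2 fold change, sTREM-1 against CON, of the tested let-7 processing genes (left) and other known let-7 targets (right), as points with 95% intervals on separate linear axes, coloured by whether they passed an adjusted p of 0.05. The 4 higher and 4 lower processing genes lie on both sides of 0, and of the targets 8 of the 9 lower ones are drawn, Il6 at -0.66 among them, with the 3 higher.

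All tested genes with an annotated 3′ UTR, 11294 in number, were then sorted by their count of let-7 seed matches, leaving out the 6 genes. The median log2 fold change was 0.0085 for the 10122 genes with 0 matches, -0.0069 for the 1018 with 1, -0.0021 for the 129 with 2 and -0.030 for the 19 with 3 or more. The share called lower in the same order was 15.6%, 18%, 14% and 26.3%, and the share called higher was 20%, 17.5%, 20.9% and 5.26%. The medians of the first 3 classes lay close together beside the width of each class, whose quartiles were -0.10 and 0.13 for 0 matches, and the last class holds few genes. No test was run on these classes. Length moved with the class, with a median 3′ UTR of 1035.5, 2204.5, 3601 and 4457 bases, and its part in these values was not tested. Hmga2 at -0.56 lay far below the lower quartile of the last class, -0.17, while Lin28b with as many matches was close to 0.

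**Figure D4:**
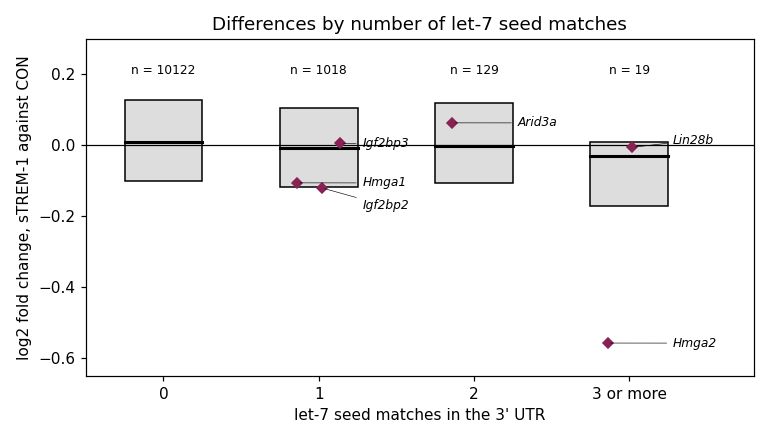
Log2 fold change, sTREM-1 against CON, of tested genes by number of let-7 seed matches in the 3′ UTR, with boxes from the lower to the upper quartile, a bar at the median and the number of genes above, and the 6 genes as diamonds (not counted in the boxes). The medians lie between -0.030 and 0.0085, and Hmga2 at -0.56 is the diamond below the boxes.

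Relatives of the 6 genes were read against the 30.5% called among all tested genes. Of 7 tested genes of other high mobility group proteins, 1 was called (14.3%), Hmgb2, a chromatin protein abundant in dividing cells, which rose from 84.5 ± 2.63 to 104 ± 3.06 CPM (log2 fold change 0.29, edgeR quasi-likelihood test, Benjamini-Hochberg adjusted p 8.6e-08). This was the opposite direction to Hmga2. Of 11 tested relatives of Arid3a, 3 were higher and 0 lower (27.3% called), led by the demethylase gene Kdm5c (log2 fold change 0.11), while its closest relative Arid3b had -0.12 (SE 0.077), not past the threshold. The calls of Arid4a (0.11) and Arid5a (0.13) were lost with DESeq2, and in 5 and 4 of the 6 fits without 1 library. With so few genes tested, neither share is read as a result about these families. Of 6 RNAs known to be bound by IGF2BP proteins, 3 were tested and 2 called. Actb, which encodes β-actin, was higher (log2 fold change 0.12), Cd44, an adhesion receptor gene, was lower (-0.15), and Myc at 0.059 did not pass the threshold. Igf2, the RNA that gave the family its name, had 1 count over all libraries, and H19 was listed at 0.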

How the data were processed

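RNA of BV2 cells was sequenced in 3 CON and 3 sTREM-1 libraries, while the methods give another number of samples per group. The authors checked reads with FastQC, used RSEM, FPKM values and edgeR, and the counts they deposited are whole numbers by symbol, with no normalization. The submitters' processing notes name HISAT2 2.0.4 and human genome builds without a role. The mouse build, annotation and strand are not given in the sources used here, so reads of near-identical or overlapping genes may have been split.

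The filter was filterByExpr with a minimum count of 10 and the scaling TMM. Groups were compared in R 4.3.3 with edgeR 4.0.16 (quasi-likelihood test, no covariate), and p-values were adjusted by Benjamini-Hochberg over all 14120 tested genes. CPM are counts scaled by the TMM library size, and log2 CPM used a prior count of 2. Standard errors were the size of the log2 fold change divided by the root of F. The 6 genes and all lists were chosen with earlier results of these data known. Named were the 6 genes, up to 4 genes per direction and list with the smallest adjusted p-value, the 2 nearest profiles and marker genes. Other genes are named as examples, chosen after their values were seen. Exon lengths, 3′ UTRs and loci came from GENCODE M21 (34435 symbols matched by name). The procedure was tested on simulated counts in which 200 genes were changed 1.5-fold. It called 71% of these, and 4.7% of its calls were genes left unchanged. Alternatives were RLE factors, 2 other filters, DESeq2 1.42.0, omission of each library, a replicate block, other lengths and other forms of the seed search. Some genes that these rules select are counted but not reported here. No pairing of the libraries by replicate number was seen in the values (correlation of deviations -0.033 to -0.014), which cannot exclude it. At 40070633 counts in the smallest library, counting error at the lowest count of each of the 6 genes was 1.01% (Igf2bp2) to 8.61% (Lin28b).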

Additional observations from a re-analysis of the deposited data

How the results depend on the processing

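Over 11 alternative settings, which refit the libraries the 6 genes were selected on and so are no independent support, the log2 fold change was -0.58 to -0.54 for Hmga2, -0.13 to -0.11 for Igf2bp2, -0.21 to -0.03 for Hmga1 and 0.037 to 0.08 for Arid3a. With 1 library left out at a time, the log2 fold change went from -0.036 to 0.056 for Igf2bp3, -0.18 to 0.14 for Lin28b, -0.033 to 0.052 for Ept1, -0.059 to 0.039 for Cep83, -0.14 to 0.20 for Gm10145 and -0.051 to 0.12 for Ankrd13d, so that no direction can be read for these. Of 496 values of 45 named genes under the alternatives, 428 kept side and direction, 52 were no longer past the threshold and 16 changed sign. Of the lists, the let-7 loci went from 1 call to 0 with RLE factors, with no filter and with DESeq2 (0 to 1 with a library left out), and the ARID relatives from 3 to 1 with DESeq2 (1 to 2 with a library left out). With a library left out the other HMG genes had 1 to 2 calls and the let-7 processing genes 4 to 8. The causes of these shifts were not tested. Only the fits with a library left out have fewer samples. Counting 8mers only, the medians were 0.0075 with 0 matches, -0.0072 with 1 (388 genes), -0.025 with 2 (15 genes) and -0.21 with 3 or more (3 genes). Of the 15 genes with 2, 20% were called higher and 13.3% lower.

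No pairing of the libraries by replicate number is stated in the labels or was seen in the values, which cannot exclude it. With a replicate block, 2 of the 6 genes, 9 processing genes and 13 other targets were called, and 4613 genes in all against 4312 without it. DESeq2 called 4027 genes, and fits without 1 library 3608 to 3863. Counting error was taken at the lowest count over the libraries of both groups. It was close to the spread within the CON group for Hmga2 (1.11% and a coefficient of variation of 1.16%) and Igf2bp2 (1.01% and 1.11%). It was above that spread for Arid3a (1.85% and 0.771%) and under it for Lin28b, Hmga1 and Igf2bp3. Within the sTREM-1 group the coefficient of variation was 2.79% for Hmga2 and 3.06% for Arid3a, above the counting error, as for Lin28b and Hmga1. For Igf2bp2 it was 0.715%, under the counting error, and for Igf2bp3 1.79%, close to it (1.75%).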
